A study of Mus musculus with 6 samples.

Results

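The genes described here are 9 enzyme genes of the methionine cycle and of transsulfuration: Mat1a, Mat2a, Gnmt, Pemt, Ahcy, Bhmt, Bhmt2, Cbs and Cth. They were chosen by name, with earlier results of these data known, as the array probes outside the control spots that carry one of these gene names. They are 9 of 37074 gene names on the array and 9 of the 19447 genes tested. They are measured by 14 of 56605 probes, and all 14 were well above background on all 6 arrays.

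Liver RNA came from nude mice, which have no functional thymus and few T cells, and 1 Agilent 1-colour expression array was run per liver. The sEV group had received small extracellular vesicles, membrane particles released by cells, from SW620, a human colorectal cancer line. These mice were given 20 µg of vesicles by tail vein at each of 10 injections over 21 days. The Control group had received PBS, a salt buffer, as often and for as long. Of the 5 mice in each group, livers of 3 were arrayed. All mice were nude and no tumour cells are named in the labels, so the comparison is between repeated vesicle and repeated buffer injection. The sEV livers came from mice picked at random, while how the Control livers were picked and the age and sex of the mice are not given in the sources used here. The p-values measure the spread between these 6 samples.

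As background, the methionine cycle joins methionine to ATP to make S-adenosylmethionine, the methyl donor of most methylation reactions. Methyltransferases turn it into S-adenosylhomocysteine, which is hydrolysed to homocysteine. Homocysteine is either methylated back to methionine, with betaine or a folate as the donor, or passed through transsulfuration to cystathionine and cysteine, a precursor of glutathione and taurine. The adult liver carries most of this flux, and its hepatocytes are known for high levels of Mat1a, Gnmt, Bhmt, Cbs and Cth.

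The reference table of RefSeq promoters (build GRCm38.p6) held 8 entries for 7 of the 9 genes and none for Mat1a and Cth, whose RNA rose. It was searched from 250 to 17 bases before the start of transcription. Entries of 3 genes are shown, 2 whose RNA rose (Gnmt and Ahcy) and Mat2a, whose RNA did not pass the test, so that a gene's upstream letters can be set beside its values. Each reads 5′ to 3′ in the direction of the gene, and all 3 lie on the minus strand. Capitals mark every match, on either strand, to TATAA (the core of a TATA box), to the CCAAT box, to the GC box GGGCGG or to the nuclear receptor half-site AGGTCA.
Gnmt, chr17:46729182-46729415: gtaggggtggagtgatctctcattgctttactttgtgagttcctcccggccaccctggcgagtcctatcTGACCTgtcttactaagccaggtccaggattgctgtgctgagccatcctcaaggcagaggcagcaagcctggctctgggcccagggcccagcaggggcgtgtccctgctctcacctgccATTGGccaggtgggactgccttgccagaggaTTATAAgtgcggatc
Ahcy, chr2:155074514-155074747: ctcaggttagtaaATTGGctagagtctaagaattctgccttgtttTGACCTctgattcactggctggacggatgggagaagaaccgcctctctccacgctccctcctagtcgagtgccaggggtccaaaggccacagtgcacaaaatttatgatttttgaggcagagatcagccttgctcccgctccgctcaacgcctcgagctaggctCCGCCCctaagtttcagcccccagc
Mat2a, chr6:72439573-72439806: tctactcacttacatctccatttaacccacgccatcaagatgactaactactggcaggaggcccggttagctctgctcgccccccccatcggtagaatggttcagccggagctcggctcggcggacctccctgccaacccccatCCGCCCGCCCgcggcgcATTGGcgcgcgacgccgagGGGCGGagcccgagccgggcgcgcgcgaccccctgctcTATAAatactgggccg

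Gnmt and Mat2a had a TATAA match, which began 30 and 32 bases before the start on the gene's strand, and Ahcy had none in this window. AGGTCA lay on the opposite strand in Gnmt, 181 to 176 bases before the start, and in Ahcy, 205 to 200 bases before it. Mat2a had 3 GGGCGG matches, of which 2 overlap on the opposite strand. Over the 8 entries, CCAAT was found in 6, against 32.5% of all 32851 promoter windows of this length. GGGCGG was found in 4 against 30.4%, TATAA in 3 against 22.1%, and AGGTCA in 3 against 13.2%. None of the 8 held TTCNNNGAA (a STAT site, in 6.58% of all windows) or TGATGNAA (an ATF4 site, in 3.27%). These matches describe letters in a window and not binding.

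Livers of vesicle-injected mice had more RNA of 5 of the 9 genes than Control livers, and the RNA of none was lower past the test. Cth rose 2.16-fold, Gnmt 1.90-fold, Ahcy 1.90-fold, Mat1a 1.78-fold and Bhmt2 1.26-fold. By their brightest probes Bhmt, Cbs, Pemt and Mat2a did not pass. The dimmer probes of Bhmt did pass when all probes were fitted, though the dimmest lost its call in 3 of 6 fits that left out 1 array. The Bhmt2 call was close to the threshold. Array rows on the slide were not balanced between the groups, and with the row in the fit only Cth kept its call. Genes were called at an adjusted p under 0.05 in a limma fit over all genes, and 8.82% of the 19447 genes were called higher and 8.11% lower by that rule. The median log2 fold change of the 9 was 0.33, against 0.02 over all genes tested. All sEV livers lay above all Control livers for 7 of the 9 genes, against 22.2% of all genes (40.8% of all genes did not overlap in either direction). In whole-liver RNA, more or fewer cells of a type and more or less RNA per cell cannot be told apart.

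Values below are on a log2 scale, relative to the 75th percentile of each array's processed signals, so that 1 unit is a doubling and 0 is the signal that 75% of spots do not exceed. Levels are compared between livers for 1 probe and not between probes. Before scaling, that 75th percentile was 440 to 506 for the Control livers and 402 to 424 for the sEV livers, and 49.9% to 54.7% of 59305 spots outside the controls were well above background. Each fold change is given as a log2 value ± its standard error from the fit, with 3 livers per group. Probe positions are those of the array design in build mm9.

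**Figure D1:**
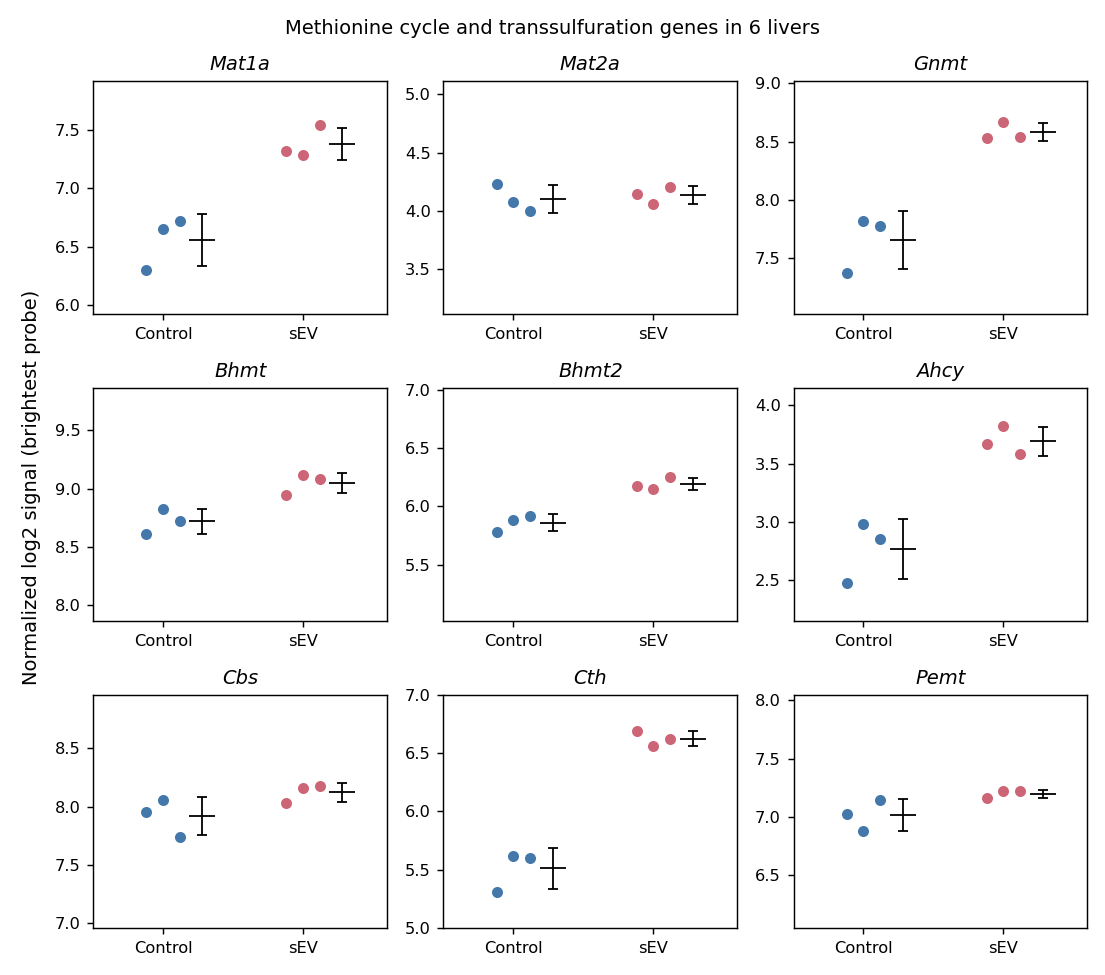
Normalized log2 signal (vertical axis, spanning 2 log2 units in every panel) of the brightest probe of each gene in 3 Control and 3 sEV livers (points), with the group mean and SD beside them (bars). Cth, Gnmt, Ahcy and Mat1a show separated groups, while the groups overlap for Mat2a and Cbs.

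S-adenosylmethionine is made by methionine adenosyltransferase, whose catalytic subunit is encoded by Mat1a in adult hepatocytes and by Mat2a in most other and in dividing cells. Mat1a (probe A_51_P464182, chr14:41937140-41937199, plus strand) measured 6.30, 6.65 and 6.72 in the Control livers and 7.32, 7.29 and 7.54 in the sEV livers. Every sEV liver was above every Control liver, and Control 1 was the lowest of the 6. The log2 fold change was 0.83 ± 0.14 (95% interval 0.49 to 1.16, limma adjusted p = 0.0149). Mat2a (probe A_51_P500344, chr6:72382856-72382915, minus strand) measured 4.23, 4.08 and 4.0 in Control and 4.15, 4.06 and 4.21 in sEV livers. These groups overlapped, with Control 1 the highest of all. Its log2 fold change of 0.04 ± 0.09 has a 95% interval of -0.19 to 0.26, which allows from 0.877-fold to 1.20-fold (limma adjusted p = 0.818). The other two Mat2a probes gave log2 fold changes of 0.06 ± 0.11 and 0.20 ± 0.12 in the fit over probes (limma adjusted p = 0.737 and 0.316).

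The within-array difference, Mat2a minus Mat1a, was 0.79 lower on the log2 scale in sEV than in Control livers (-0.79), with SDs of 0.34 in Control and 0.08 in sEV livers. It did not overlap between the groups. The exact two-sided permutation test gave p = 0.1, the smallest p that 3 against 3 can give, so this design cannot pass 0.05. Scaling between arrays cancels in this difference when it shifts all probes of an array equally. Mat2b, the regulatory subunit that pairs with the Mat2a product, had a log2 fold change of -0.06 ± 0.08, and its groups overlapped (limma adjusted p = 0.636).

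Glycine N-methyltransferase, the product of Gnmt, is an abundant liver enzyme that uses S-adenosylmethionine to methylate glycine and so disposes of its excess. Gnmt (probe A_51_P419439, chr17:46862894-46863042, minus strand, a span longer than the probe itself) measured 7.37, 7.82 and 7.78 in Control and 8.53, 8.67 and 8.54 in sEV livers. The lowest sEV liver stood above the highest Control liver by more than the range within either group. This is a log2 fold change of 0.92 ± 0.14 (95% interval 0.59 to 1.26, limma adjusted p = 0.0111).

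Pemt encodes phosphatidylethanolamine N-methyltransferase, the liver enzyme that spends 3 methyl groups on each phosphatidylcholine it makes. Its brightest probe (A_55_P1970860, chr11:59784123-59784182, minus strand) measured 7.03, 6.88 and 7.15 in Control and 7.16, 7.22 and 7.22 in sEV livers. The groups did not overlap, but Control 3 and sEV 1 nearly met. With a log2 fold change of 0.18 ± 0.10, Pemt did not pass (95% interval -0.05 to 0.41, limma adjusted p = 0.249). Pemt had 0.004 under quantile normalization and in the authors' deposited table (limma adjusted p = 0.984 in each). Its other probe gave 0.17 ± 0.08 (limma adjusted p = 0.205 in the fit over probes). The intervals of Gnmt and Pemt, both methyltransferase genes, did not overlap, and the difference between these genes was not tested.

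Ahcy encodes adenosylhomocysteinase, which splits the product of every such methylation into homocysteine and adenosine. Its probe (A_52_P176160, chr2:154891321-154891380, minus strand) measured 2.48, 2.98 and 2.85 in Control and 3.67, 3.82 and 3.58 in sEV livers. Every sEV liver lay above every Control liver, and Control 1 was again the lowest. Ahcy rose by 0.92 ± 0.15 on the log2 scale (95% interval 0.56 to 1.28, limma adjusted p = 0.0138).

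Bhmt encodes betaine-homocysteine methyltransferase, which remethylates homocysteine with betaine, and its neighbour Bhmt2 encodes a related enzyme that uses S-methylmethionine. The brightest of 3 Bhmt probes (A_55_P2714597, chr13:94386862-94386921, minus strand) measured 8.61, 8.83 and 8.72 in Control and 8.95, 9.12 and 9.08 in sEV livers. The groups did not overlap, yet the log2 fold change of 0.33 ± 0.10 did not pass (95% interval 0.10 to 0.56, limma adjusted p = 0.0644). The other Bhmt probes were dimmer and had larger fold changes. Probe A_55_P2103963 read 7.04, 7.24 and 7.16 in Control and 7.92, 7.89 and 8.16 in sEV livers, a log2 fold change of 0.84 ± 0.11 (limma adjusted p = 0.00822 over probes). The dim probe A_55_P2103969, listed under an Ensembl transcript, read -3.03, -2.47 and -2.44 in Control and -1.63, -1.89 and -1.51 in sEV livers, a log2 fold change of 0.97 ± 0.19 (limma adjusted p = 0.0248 over probes).

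The probes of Bhmt therefore gave different sizes in one direction, and which of them is taken sets the call. On leaving out 1 array, A_55_P2103969 lost its call in 3 of 6 fits (limma adjusted p up to 0.0744 over probes), and it did so in 3 other alternatives. The call of A_55_P2103963 held in all 6 of these fits and was lost in 2 other alternatives. The 95% interval of the brightest probe (0.09 to 0.57 in the fit over probes) and that of A_55_P2103963 (0.57 to 1.1) met at 0.57. The unscaled signal of the brightest probe was 198316 to 206884 in Control and 209286 to 224070 in sEV livers, and no array spot outside the controls was saturated (0 spots). With the mean of all 3 probes Bhmt had a log2 fold change of 0.71 and passed (limma adjusted p = 0.0151), as it also did in 4 further alternatives, while quantile normalization gave 0.08. The design gives a genomic match for A_55_P2103963 that covers 5 bases (chr13:94386836-94386840), so its position within the gene was not used here.

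Bhmt2 (probe A_51_P321734, chr13:94426379-94426438, minus strand) measured 5.78, 5.88 and 5.92 in Control and 6.17, 6.15 and 6.25 in sEV livers. The groups did not overlap, and the spread within each was small (SD 0.07 and 0.05, n = 3). The log2 fold change was 0.33 ± 0.08 (95% interval 0.13 to 0.52, limma adjusted p = 0.0415). This call is close to the threshold: the same values gave an adjusted p of 0.0505 in the limma fit over probes, and leaving out any 1 array gave adjusted p values of 0.0746 to 0.121. It was lost in 13 of 19 alternatives, among them scaling to the median (adjusted p = 0.120), quantile normalization (0.0609) and the authors' deposited table (0.0611). Bhmt2 minus Bhmt, both by their brightest probes, differed by -0.003 between the groups on the log2 scale (exact permutation p = 0.9), and by -0.39 when the mean of the Bhmt probes was taken.

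**Figure D2:**
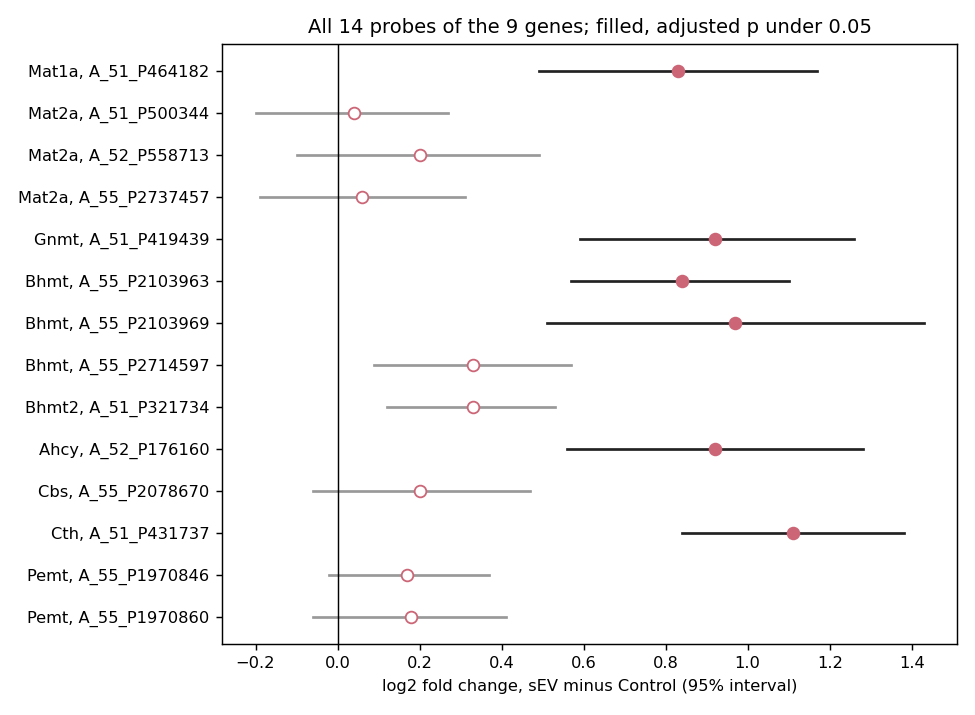
The log2 fold change, sEV minus Control, of all 14 probes of the 9 genes (horizontal axis) with its 95% interval (lines) from the limma fit over probes, with filled points at an adjusted p under 0.05. The 6 filled probes belong to Mat1a, Gnmt, Bhmt, Ahcy and Cth, and the 3 Bhmt probes range from 0.33 to 0.97.

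Over all 14 probes, 6 passed and all 6 were higher, against 7.45% of 28766 probes called higher and 6.70% called lower. All sEV livers lay above all Control livers for 10 of the 14 probes, against 21.9% of all probes, and 38.8% of all probes did not overlap in either direction. Probes of 1 gene share its RNA and are not separate evidence.

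Transsulfuration begins with Cbs, whose enzyme joins homocysteine and serine into cystathionine, and ends with Cth, whose enzyme splits cystathionine into cysteine. Cbs (probe A_55_P2078670, chr17:31749593-31749652, minus strand) measured 7.95, 8.06 and 7.74 in Control and 8.03, 8.16 and 8.18 in sEV livers. The groups overlapped, since Control 2 was above sEV 1. Its log2 fold change of 0.20 ± 0.11 did not pass (95% interval -0.06 to 0.47, limma adjusted p = 0.243), and it turned to -0.03 under quantile normalization and in the authors' deposited table. Cth (probe A_51_P431737, chr3:157557667-157557726, minus strand) measured 5.31, 5.62 and 5.60 in Control and 6.69, 6.56 and 6.62 in sEV livers. The gap between the groups was wider than the range within either of them. Its log2 fold change of 1.11 ± 0.11 (95% interval 0.84 to 1.38, limma adjusted p = 0.00342) was the largest of the 9 genes by the brightest probes. The intervals of Cbs and Cth did not overlap, and the difference between them was not tested.

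The genes whose values over the 6 livers were most like those of Cth were Lemd2, Tdo2, Sds, Mon1a and Cyp27a1, with Pearson r from 0.9984 to 0.9996 over 6 livers. Any gene that differs between the groups with little spread reaches a high r over 6 points. Sds encodes serine dehydratase, a liver enzyme of serine breakdown, and had a log2 fold change of 1.51 ± 0.16. Tdo2 encodes the liver's tryptophan dioxygenase and had 0.79 ± 0.08. Cyp27a1, a sterol hydroxylase of bile acid synthesis, had 0.72 ± 0.08. Lemd2 and Mon1a had 0.40 ± 0.08 and 0.36 ± 0.07. Genes chosen for following Cth separate the groups by that choice, so these values are a description.

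The livers within a group did not vary alike. By the brightest probes, the SD over the Control livers was larger than that over the sEV livers for 9 of the 9 genes, against 47.3% of all genes tested. This SD was the smaller one for Bhmt probe A_55_P2103963 (0.1 in Control, 0.15 in sEV livers) and Pemt probe A_55_P1970846 (0.02 and 0.07). Control 1 was the lowest Control liver for 6 of the 9 genes (66.7%), against 46.6% of all genes and 54.8% of the genes called higher. Without Control 1, Cth had a log2 fold change of 1.01 (limma adjusted p = 0.00860), and Mat1a, Gnmt, Ahcy and Cth passed in each of the 6 fits that left out 1 array.

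The groups also differed in brightness as a whole, which scaling removes. Before scaling, every sEV array was brighter than every Control array for 5 of the 9 genes, namely Mat1a, Gnmt, Bhmt, Ahcy and Cth, against 8.09% of all genes, and dimmer for 0 of the 9, against 38.3% of all genes. Unscaled Cth signals were 20137 to 23849 in Control and 37801 to 43828 in sEV livers. Unscaled Gnmt signals were 83822 to 108392 in Control and 153666 to 163562 in sEV livers. Unscaled Bhmt2 signals overlapped (25949 to 29838 in Control, 28418 to 31387 in sEV livers), so its separation appears after scaling.

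Around the 9 genes, 7 lists of neighbouring steps were drawn up, also with earlier results of these data known. They held 85 tested genes, of which 18 were higher (21.2%), 9 lower (10.6%) and 58 short of the threshold. The median log2 fold change of these genes was 0.06. Beside the 8.82% higher and 8.11% lower over all genes, the share called lower was near the background. With scaling to the array median 11 of the list genes were higher and 9 lower, and leaving out 1 array left 13 to 18 called.

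Among 8 accessory genes of the cycle 3 were higher, 0 lower and 5 neither (median log2 fold change 0.02). Adk, whose kinase removes the adenosine that the Ahcy enzyme releases, rose by 0.43 ± 0.09 (limma adjusted p = 0.0280). The Ahcy-like genes Ahcyl2 and Ahcyl1 rose by 0.50 ± 0.13 and 0.30 ± 0.08 (limma adjusted p = 0.0480 and 0.0461). The calls of Adk and Ahcyl1 were lost on leaving out any 1 array, and that of Ahcyl2 on leaving out any 1 except Control 3 (adjusted p up to 0.132, for Ahcyl1). With the mean of all its probes, Adk did not pass (log2 0.26, limma adjusted p = 0.108). Mtr, the folate-dependent methionine synthase that is the other route back from homocysteine, had a log2 fold change of -0.25 ± 0.11 (limma adjusted p = 0.167).

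Of 20 folate one-carbon genes tested, 4 were higher, 2 lower and 14 neither (median log2 fold change -0.01). Tyms is the thymidylate synthase that uses a folate one-carbon group for DNA synthesis. It measured 2.19, 2.06 and 2.07 in Control and 1.04, 0.98 and 1.08 in sEV livers. Every sEV liver lay below every Control liver, and Tyms was lower by 1.07 ± 0.08 on the log2 scale (limma adjusted p = 0.00128). Genes that rose were Fpgs, which adds glutamates that keep folate in the cell (0.64 ± 0.10, limma adjusted p = 0.0122), Slc19a1, the reduced folate carrier (0.62 ± 0.09, limma adjusted p = 0.0102), and Aldh1l1, a folate dehydrogenase of liver (0.56 ± 0.09, limma adjusted p = 0.0139).

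Among 9 genes of choline oxidation and betaine supply 1 was higher, 1 lower and 7 neither (median log2 fold change 0.21). Aldh7a1, an aldehyde dehydrogenase that oxidises betaine aldehyde, fell by 0.57 ± 0.13 on the log2 scale (limma adjusted p = 0.0326). Slc6a13, a transporter of GABA and taurine, rose by 0.38 ± 0.08 (limma adjusted p = 0.0245). The Slc6a13 call was lost on leaving out any 1 array and that of Aldh7a1 on leaving out any 1 except sEV 1. With the mean of all its probes, Aldh7a1 had a log2 fold change of -0.25 and did not pass (limma adjusted p = 0.147). Chdh, the choline dehydrogenase that starts betaine synthesis, had a log2 fold change of -0.06 ± 0.12 with overlapping groups.

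A list for the CDP-choline route, which makes phosphatidylcholine without Pemt, also held the ethanolamine route genes Etnk1, Etnk2 and Pcyt2. It had 2 of 8 tested genes higher, 0 lower and 6 neither (median log2 fold change 0.08). Chpt1, which catalyses the last step of the CDP-choline route, rose by 0.86 ± 0.11 (limma adjusted p = 0.00626). Etnk2, an ethanolamine kinase, rose by 0.67 ± 0.13 (limma adjusted p = 0.0207), and this call was lost without Control 1, Control 2 or sEV 3 (adjusted p 0.0559 to 0.0589). It was also lost with the mean of all Etnk2 probes (log2 0.44, limma adjusted p = 0.085). Pcyt1a, whose enzyme sets the pace of the CDP-choline route, had a log2 fold change of -0.01 ± 0.12.

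Other methyltransferases that use S-adenosylmethionine moved both ways: 2 of 12 were higher, 4 lower and 6 neither (median log2 fold change -0.05). Nnmt, which methylates nicotinamide, read 4.07, 5.55 and 5.48 in Control and 7.18, 7.30 and 7.88 in sEV livers. The groups did not overlap, and Control 1 stood well below the other Controls. Nnmt rose 5.34-fold (log2 2.42 ± 0.42, limma adjusted p = 0.0173, and 0.0504 without sEV 3). Inmt, an amine methyltransferase, fell by 1.37 ± 0.14 on the log2 scale (limma adjusted p = 0.00359). The DNA methyltransferase genes Dnmt3a and Dnmt3b fell by 1.05 ± 0.20 and 0.70 ± 0.11 (limma adjusted p = 0.0223 and 0.0131). The Dnmt3a call was lost without Control 1, Control 2 or sEV 2 (adjusted p 0.0509 to 0.0760).

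In a list drawn up for cysteine, taurine, glutathione and sulfide metabolism, 5 of 15 tested genes were higher, 0 lower and 10 neither (median log2 fold change 0.22). Got1, the cytosolic aspartate aminotransferase, rose by 1.02 ± 0.15 (limma adjusted p = 0.00964), and Fmo5, a flavin monooxygenase, by 1.07 ± 0.16 (limma adjusted p = 0.0116). No step of Fmo5 in these pathways is given here, and the count includes it. Ethe1, the mitochondrial persulfide dioxygenase of sulfide breakdown, rose by 0.60 ± 0.10 (limma adjusted p = 0.0138). Chac1, which degrades glutathione, rose by 1.07 ± 0.22 (limma adjusted p = 0.0250), a call lost without Control 1, Control 3, sEV 2 or sEV 3 (adjusted p 0.0703 to 0.0844). The glutathione synthesis genes Gclc, Gclm and Gss had log2 fold changes of -0.42 ± 0.13, 0.06 ± 0.08 and -0.20 ± 0.09, none of which passed.

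**Figure D3:**
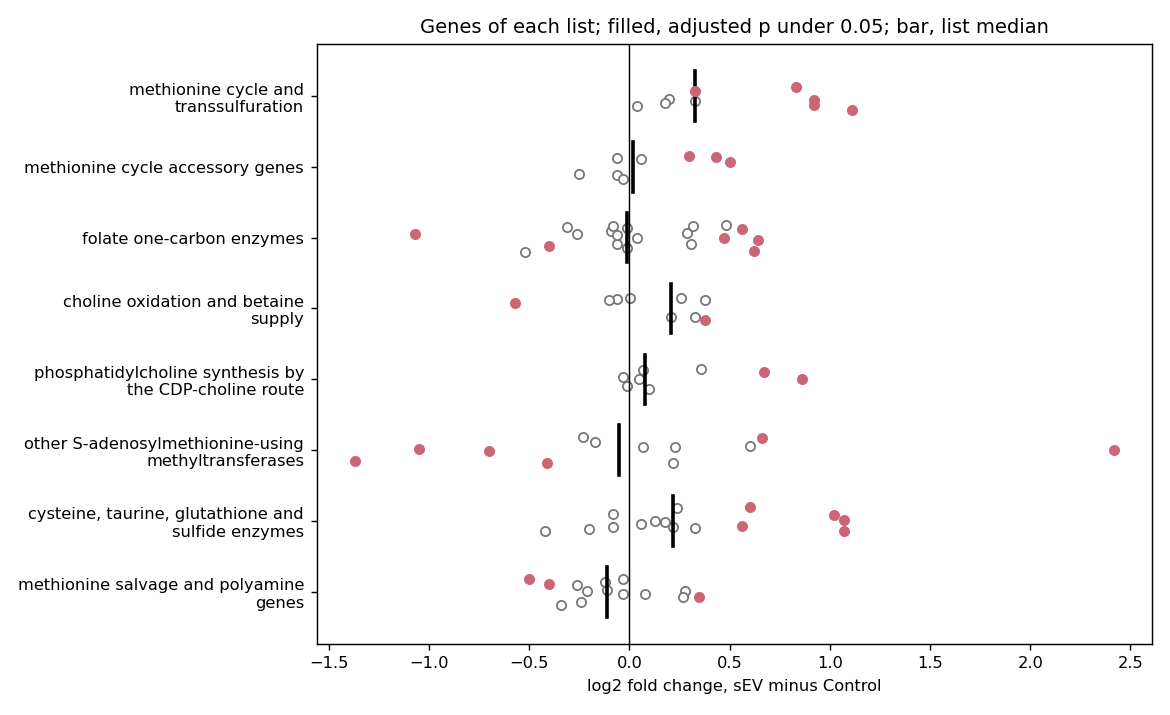
The log2 fold change, sEV minus Control, of each tested gene (points, horizontal axis) of the 9 genes and of 7 neighbouring lists, filled at an adjusted p under 0.05, with list medians (bars). The 9 genes lie at or above 0.04, while the methyltransferase list spans from -1.37 for Inmt to 2.42 for Nnmt.

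Some markers of liver cell types differed between the groups as well, and their counts stand beside 8.82% of all genes called higher and 8.11% lower. Alb, the albumin gene that marks hepatocytes, was bright on all arrays, at 9.38, 9.57 and 9.45 in Control and 9.32, 9.81 and 9.70 in sEV livers, with overlapping groups. Of 12 hepatocyte markers 6 were higher and 0 lower, and their summed level on the log2 scale was 12.08 to 12.22 in Control and 12.33 to 12.53 in sEV livers. The higher ones include the metabolic genes Tat (1.19 ± 0.12), Cps1 (0.84 ± 0.09), Ass1 (0.80 ± 0.11) and Pck1 (0.79 ± 0.09). Besides Alb, Ttr (0.16 ± 0.12), Cyp2e1 (0.16 ± 0.09), Fgb (0.19 ± 0.15) and Serpina1a (0.27 ± 0.10) did not pass. Apoa1 went the other way, at -0.24 ± 0.10, and did not pass either, though its groups did not overlap (limma adjusted p = 0.144). Kupffer cell markers were higher for 6 of 11 (summed level 6.67 to 7.09 in Control, 7.22 to 7.34 in sEV livers), and neutrophil markers for 5 of 11 (6.66 to 6.95 and 7.15 to 7.28). Among Kupffer cell markers the scavenger receptor gene Marco rose by 1.21 ± 0.28 on the log2 scale and the complement genes C1qa, C1qb and C1qc by 0.74 ± 0.13, 0.72 ± 0.14 and 0.76 ± 0.13, while Clec4f, at 0.41 ± 0.14, did not pass. Among neutrophil markers the granule genes Mpo, Ngp and Elane rose by 2.02 ± 0.40, 1.82 ± 0.42 and 1.31 ± 0.16 and S100a8 by 1.17 ± 0.30. Ly6g, at -0.08 ± 0.16, and Csf3r, at -0.9 ± 0.75, did not pass. Cxcr2, Retnlg, Mmp8 and Camp had positive log2 fold changes and did not pass either.

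Stellate cell markers were lower for 5 of 9. Among them Col1a1, Col3a1 and Lrat fell by 2.05 ± 0.36, 1.89 ± 0.29 and 1.1 ± 0.17 on the log2 scale. Reln (-0.41 ± 0.19), Pdgfrb (-0.16 ± 0.24) and Dcn (-0.22 ± 0.19) did not pass, nor did Des, which had a positive value (0.29 ± 0.25). The summed stellate level overlapped between the groups (6.20 to 6.73 in Control, 5.74 to 6.22 in sEV livers), and Dcn was its largest term. Erythroid markers were lower for 3 of 6 tested (9.18 to 9.30 and 7.62 to 9.34, with sEV 2 the lowest), among them Ahsp and Slc4a1, which fell by 3.59 ± 0.34 and 1.79 ± 0.32 on the log2 scale. None of the 7 sinusoidal endothelial and 5 tested cholangiocyte markers passed (0 each). Kidney and pancreas also hold enzymes of these pathways. Of 4 kidney tubule markers 3 were too dim to test, with Umod and Slc34a1 well above background on 0 of 6 arrays. Of 5 acinar pancreas markers 3 were too dim to test, and of the others Cela1 fell by 1.24 ± 0.12 on the log2 scale, while Amy2a5 had 0.06 ± 0.08 with overlapping groups. The part of these cell types in the results on the 9 genes was not tested.

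All arrays were on 1 slide and 1 scan, but the slide's rows were not balanced: the Control arrays and sEV 1 lay in row 1, and sEV 2 and sEV 3 in row 2. With the row as a block, Cth kept its call (log2 1.18, limma adjusted p = 0.0292), while those of Mat1a (0.77), Gnmt (0.87), Ahcy (0.90) and Bhmt2 (0.31) were lost (limma adjusted p = 0.115, limma adjusted p = 0.0920, limma adjusted p = 0.1 and limma adjusted p = 0.212). Within row 1, where sEV 1 alone stands against 3 Controls and is assumed to vary as they do, the log2 fold changes were those same values, and Cth passed (limma adjusted p = 0.0464). Row 2 holds sEV arrays only. Of the neighbouring list genes, 27 passed without the row and 5 with it. With no filter on dim probes, which adds tests, Gnmt and Cth passed, while Mat1a, Ahcy and Bhmt2 had limma adjusted p = 0.0646, 0.0571 and 0.179.

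**Figure D4:**
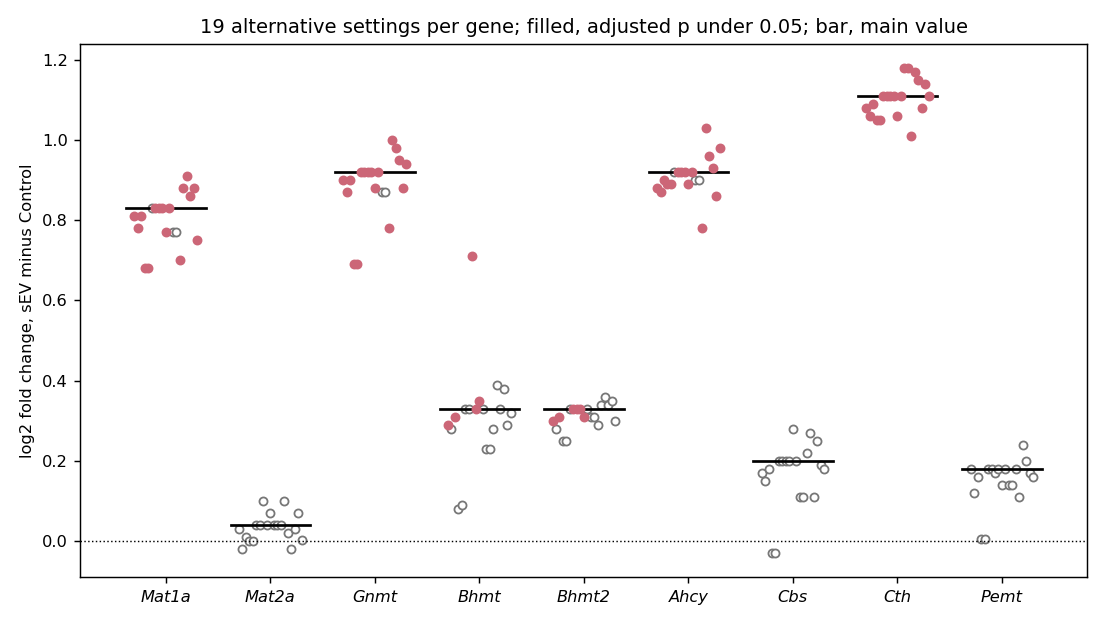
The log2 fold change, sEV minus Control, of each of the 9 genes (vertical axis) under 19 alternative settings (points, filled at an adjusted p under 0.05), with the reported value as a bar. Cth stays between 1.01 and 1.18 with every point filled, Bhmt ranges from 0.08 to 0.71, and Mat2a and Cbs have points below 0.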

How the data were processed

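Cy3-labelled RNA of 6 livers was hybridised to 1-colour arrays, and the submitters' processing notes name Agilent Feature Extraction 10.7.1.1. Per the file headers, the deposited intensity of a spot is a processed signal with the background subtracted within its array. The authors' deposited table is on a log2 scale and had equal column medians of 4.50. The sources used here do not say how it was made. Fits to it and to quantile-normalized values were nearly the same (3494 and 3498 genes called), so these alternatives are not separate evidence. From the scanner files, log2 values were taken relative to the 75th percentile of each array, without control spots and outlier-flagged spots (91 to 171 per array, 0 for the 9 genes). Spots of a probe were averaged. Probes were kept if well above background on 3 or more of 6 arrays and each gene name was represented by its brightest probe on average. The comparison of sEV with Control used lmFit and eBayes of limma 3.58.1 (R 4.3.3), with Benjamini-Hochberg adjustment over all genes, or over all probes where said, and a threshold of 0.05. The number of arrays limits the precision.

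The members and lists were chosen with earlier results of these data known. The text names all 9 genes, up to 4 called genes of each pathway list by size (otherwise the 2 highest and 2 lowest), the 5 genes most like Cth, and Alb. Mat2b, Mtr, Chdh, Pcyt1a, Gclc, Gclm, Gss and the cell type markers were named for their role, after their values were seen. All 9 accessions matched the RefSeq table. Figures were drawn with matplotlib 3.10.9.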

Additional observations from a re-analysis of the deposited data

How the results depend on the processing

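In 19 alternatives Cth kept its call, and Mat1a, Gnmt and Ahcy kept theirs in 16, 17 and 16. Without a filter on dim probes, which raises the number of tests and puts the median of all genes at 0.19, 801 genes, 939 probes, 2 of the 9 genes and 5 list genes passed, against 3294, 4069, 5 and 27. With the slide row as a block these were 721, 788, 1 and 5, and within row 1 they were 608, 677, 1 and 2. Leaving out 1 array gave 1329 to 2761 genes, 1505 to 3219 probes, 4 of the 9 genes each time and 13 to 18 list genes, and Mat2a minus Mat1a from -0.92 to -0.60. Replicate numbers were not taken as pairs (deviations correlated at 0.02, 0.16 and 0.02). With the replicate number as a block 2176 genes, 2589 probes, 4 of the 9 genes and 15 list genes passed. Of called genes 52.1% were higher, against 40.5% with scaling to the median and 39.0% with no filter. Bhmt2 minus Bhmt changed sign under normexp (0.01), quantile normalization and the authors' table (0.17 each) and the row block or row 1 (0.09 each), and ran from -0.05 to 0.06 on leaving out 1 array. Mat2a ran from -0.02 (without Control 3) to 0.10 on leaving out 1 array and turned to -0.02 with median scaling, to -0.0001 under quantile normalization and to -0.0007 in the authors' table, and Cbs to -0.03 in these last settings. The causes were not tested.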

Other observations

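Polyamine synthesis takes the aminopropyl group of S-adenosylmethionine, and methionine salvage rebuilds methionine from the methylthioadenosine that is left. Of 14 tested genes of salvage and polyamine metabolism 1 was higher, 2 lower and 11 neither (median log2 fold change -0.11). Odc1, the ornithine decarboxylase that starts polyamine synthesis, measured 2.75, 2.97 and 3.09 in Control and 2.31, 2.58 and 2.42 in sEV livers, and fell by 0.50 ± 0.12 on the log2 scale (limma adjusted p = 0.0385). Smox, which oxidises spermine, fell by 0.40 ± 0.10 (limma adjusted p = 0.0398), and Sat1, which acetylates polyamines for breakdown or export, rose by 0.35 ± 0.09 (limma adjusted p = 0.0435). The groups did not overlap for 6 of the 14 genes, these 3 among them, against 40.8% of all genes. The calls of Smox and Sat1 were lost on leaving out any 1 array, and that of Odc1 on leaving out any 1 except Control 1 (adjusted p up to 0.135). With the mean of all probes of a gene, Odc1 (-0.38) and Smox (-0.37) did not pass (limma adjusted p = 0.0836 and 0.0529), while Sat1 did (limma adjusted p = 0.0305).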
